A study of Oryza sativa with 6 samples.

Results

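The 2 kinds of lateral root of the rice cultivar IR29, the longer L-type and the shorter S-type, were set against each other under control conditions, with 1 RNA-seq library a side. Of the 37938 loci in the deposited table, 12887 (34.0%) had at least 50 scaled counts in one of the 2 libraries and are described here. A scaled count is a number of reads on a locus divided by the size factor that the authors gave each library. The loci at the edge of this rule had 50.04 scaled counts in the L-type and 21.34 in the S-type library just inside it, and 9.49 in the L-type and 49.42 in the S-type library just outside it. Between 50 and 60 scaled counts in the higher library stood 855 loci, and between 40 and 50 stood 953 that were left out.

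The series compared L-type lateral, S-type lateral and nodal roots, each under 50 mM NaCl for 7 days and in untreated controls. All plants were IR29, which the series title calls sensitive to salinity, grown with days at 30 °C and nights at 25 °C. Each group was 1 library, and the labels give no number of plants or roots per library. The control L-type library held 3889244 reads on loci and the control S-type library 4081780, and the other 4 libraries held between 3839177 and 4249872.

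Rice nodal roots are the shoot-borne axes from which lateral roots branch. S-type laterals are thin, short, soon stop growing and bear no branches. L-type laterals are thicker, keep a working meristem for longer and can branch again. A lateral root library mixes all cell layers and zones of the root, so a higher level cannot be told apart from a larger share of the cells that hold the transcript.

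With 1 library a side there is no test of the difference between the 2 root types under control. A locus was called higher or lower in L-type roots when it differed at least 2-fold on the log2(scaled count + 1) scale, had at least 50 scaled counts in the higher library, and had a 95% exact conditional binomial interval of the ratio that excluded 1. That interval covers counting error only, and reads without molecular identifiers are not independent molecules. The files do not pair locus IDs with gene names, and 1 of the 36773 IDs matched the reference table, so at most 2 loci in each direction are given by ID and no gene symbol is used.

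L-type roots had 1589 loci called higher (12.3% of the 12887) and 2836 called lower (22.0%) than S-type roots, and 8462 were called in neither direction. Larger differences were more one-sided. At 4-fold or more, 319 loci lay higher in L-type roots and 1354 lower. At 16-fold or more, 36 were higher and 300 lower. The log2 differences ran from -8.20 to 8.11, with a median of -0.05, and 5% of loci lay below -3.01 and 5% above 1.55. In the L-type library 34 of the 12887 loci had no read, and in the S-type library 3 had none.

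**Figure D1:**
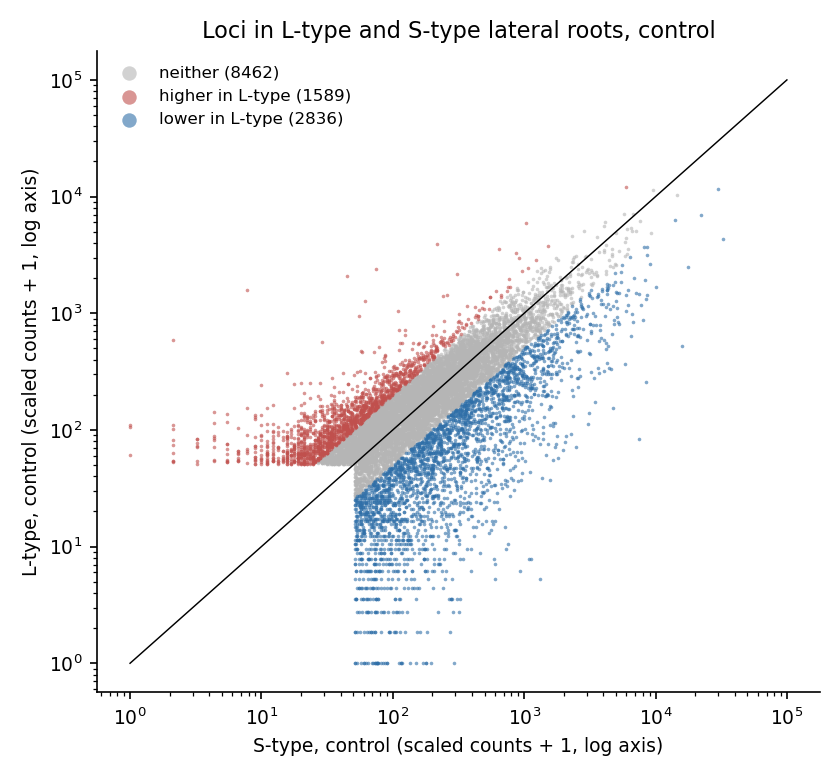
Scaled counts + 1 of the 12887 loci in control L-type (y axis) against control S-type lateral roots (x axis), both on log axes, 1 point per locus, with the line of equal levels. The 1589 loci called higher in L-type roots lie above the line and the 2836 called lower lie below it, with the wider spread below.

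The direction of the majority rests on how the libraries are scaled. When each library was scaled to its total reads in place of the authors' size factors, the median log2 difference was 0.45, and 3542 loci (64.6% of those called) stood higher in L-type roots against 1943 lower. With the authors' size factors 35.9% of called loci were higher. With library totals and a 4-fold minimum, 712 were higher and 937 lower. Medians of gene groups are therefore to be read against the -0.05 of all members. For abundant loci the level matters too, as given next. The values with library totals are given where they change which direction has more calls or the sign of a median.

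The difference in direction went with the level of the locus. Among the 3288 loci with 50 to 100 scaled counts in the higher library, 19.9% were called higher and 19.8% lower in L-type roots. Among the 605 loci with 1000 to 2000, 3.47% were higher and 40.7% lower. Among the 63 loci with 5000 or more, 2 (3.17%) were higher and 40 (63.5%) lower. Scaled to library totals the same ends read 34.7% higher and 15.2% lower at 50 to 100, and 7.55% higher and 47.2% lower at 5000 or more.

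**Figure D2:**
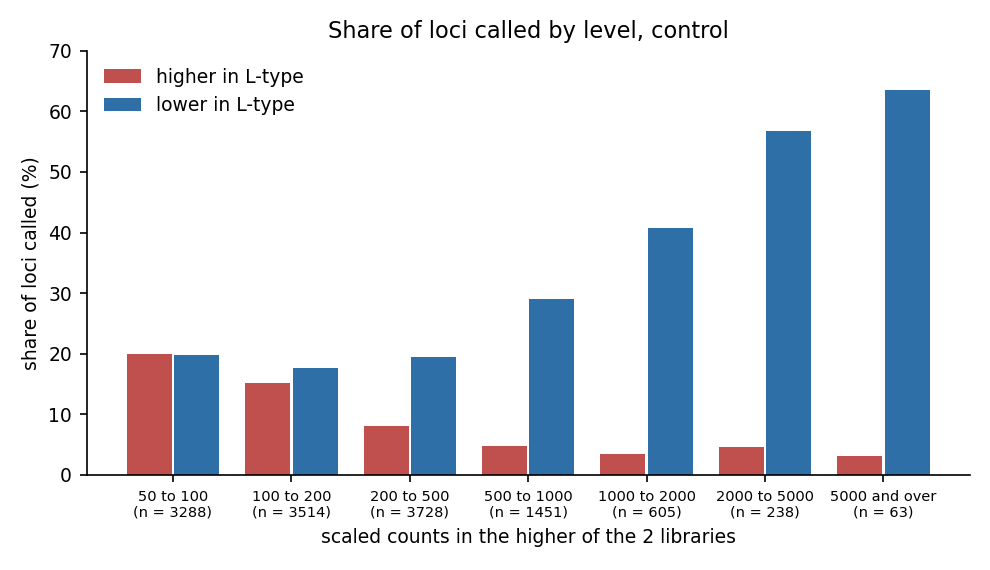
Share of loci called higher (red) or lower (blue) in L-type roots, in percent (y axis), by scaled counts in the higher of the 2 control libraries (x axis, number of loci under each pair of bars). The share lower reaches 63.5% at 5000 scaled counts and over, where the share higher is 3.17%.

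The loci lower in L-type roots therefore held a large part of the S-type library. Together the 2836 lower loci made up 13.8% of the L-type and 39.2% of the S-type scaled counts, while the 1589 higher loci made up 10.1% of the L-type and 2.57% of the S-type counts. The 5 most abundant lower loci had between 522.0 and 11708.3 scaled counts in L-type and between 15875.9 and 32638.0 in S-type roots. The 5 most abundant higher loci had between 3550.2 and 12094.8 in L-type and between 216.8 and 5980.1 in S-type roots. The 10 most abundant loci of any kind took 2.53% of the L-type and 3.84% of the S-type library.

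Among called loci with a gene ID and at least 200 scaled counts in the higher library, with a library at 0 set to 3 reads, the largest ratios upward were at Os05g0111300 and Os03g0103200. Os05g0111300 (chromosome 5, 605867 to 606764, build IRGSP-1.0 per the submitters' processing notes) had 584.9 scaled counts in the L-type and 1.12 in the S-type library, which are 678 reads and 1 read. The ratio was 520.8 (95% counting interval 93.15 to 20598.9). Under salt it had 1004.3 in the L-type and 1.26 in the S-type library, and nodal roots had 332.1 under control. The L-type and nodal libraries were all high for this locus and both S-type libraries held 1 read.

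Os03g0103200 (chromosome 3, 208339 to 211818) had 1569.3 scaled counts in the L-type and 6.74 in the S-type library, a ratio of 232.9 (95% counting interval 106.8 to 635.4). Under salt it had 1695.4 in L-type roots and no read in S-type roots, 447.8-fold higher with the S-type library set to a floor of 3 reads. The 95% counting interval of the salt ratio started at 363.8. Nodal roots had 10412.9 under control and 6666.1 under salt. Its level was therefore highest in nodal roots, lower in L-type roots and lowest in S-type roots under both treatments.

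By the same rule the largest ratios downward were at Os02g0643800 and Os10g0456100. Os02g0643800 (chromosome 2, 25878904 to 25879875) had 0.863 scaled counts in L-type roots, which is 1 read, and 272.9 in S-type roots, a 316.4-fold difference (95% counting interval 56.25 to 12546.8). Os10g0456100 (chromosome 10, 16663611 to 16664794) had 4.31 in the L-type and 1307.5 in the S-type library, a 303.1-fold difference (95% counting interval 129.5 to 935.2). One lower locus at this level had no read in L-type roots and 293.2 scaled counts in S-type roots. It has the lowest log2 difference, -8.20, but with the L-type library set to the floor of 3 reads it was 113.3-fold lower and so ranks below these. Under salt the gaps of the 2 named loci, picked for their size under control, were smaller. Os02g0643800 had 78.52 in the L-type and 295.3 in the S-type library with salt, and Os10g0456100 had 438.2 in the L-type and 2305.9 in the S-type library with salt. In control nodal roots the pair had 6.47 and 5.55 scaled counts, near the control L-type levels.

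Across the 10 largest ratios in each direction by that rule, the higher loci had 17.6-fold to 520.8-fold more in L-type roots, and the lower loci 125.4-fold to 316.4-fold less. Of each 10, 8 were called the same way under salt. The 10 higher loci had a median of 1109.5 scaled counts in L-type, 35.9 in S-type and 624.8 in nodal control roots. The 10 lower loci had medians of 3.45 in L-type, 463.3 in S-type and 6.48 in nodal control roots.

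Gene groups were described with 37 lists of IDs taken from general knowledge of rice genes and chosen with earlier results of these data known; no annotation was at hand to check who belongs to them. They name 474 IDs, of which 461 were in the table and 265 loci reached 50 scaled counts in one of the 2 libraries. A locus that reached the minimum only in its higher library had to differ, so the counts describe the lists and test nothing. Counts below are out of the loci that reached the minimum, while sums are over every listed locus in the table. The counts are to be read against 12.3% called higher and 22.0% called lower over all 12887 loci. Both shares change with level. Of loci with 1000 to 2000 scaled counts in the higher library 40.7% were lower, with a median log2 difference of -0.74. Lists of abundant loci are therefore to be read against loci of like level. Of the 33 lists with at least 3 such loci, 25 had a median below 0 and 8 above 0, beside -0.05 for all members. With library totals 20 were below 0 and 13 above 0.

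Genes of cell division were the list with the most loci called higher in L-type roots. Cyclins, cyclin-dependent kinases and the proteins that license DNA replication are made in dividing cells and mark the meristem. Of 15 loci, 8 were called higher, 0 lower and 7 neither, and the median log2 difference was 1.19. The lowest was at -0.25 and the highest at 2.32. The list summed to 2673.6 scaled counts in the L-type and 1304.1 in the S-type library under control, to 926.7 in the L-type and 169.1 in the S-type library under salt, and to 3768.5 in control nodal roots. L-type roots were thus above S-type roots in both treatments, and both control lateral libraries were below the control nodal library. The locus with the largest difference had 306.3 scaled counts in the L-type and 60.66 in the S-type library.

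Growth-related lists did not all follow. The tubulins, subunits of microtubules, had 0 of 9 loci called in either direction under control, with a median of -0.24 that was 0.21 with library totals. Their sums were 8645.6 in the L-type and 11131.3 in the S-type library. The catalytic subunits of cellulose synthase listed for the primary wall had 2 of 6 loci higher, 0 lower and a median of 0.52, with 7112.5 scaled counts in the L-type and 4860.3 in the S-type library. Expansins, which loosen the wall as cells expand, had 2 of 8 higher and 3 lower, with a median of -0.57, and 3 of each with library totals. Only 2 of the 7 listed loci for secondary wall cellulose and its regulators reached 50 scaled counts. That list summed to 285.6 in L-type, 178.6 in S-type and 5082.9 in nodal control roots.

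Regulators of defence and stress were lower in L-type roots as a list. WRKY proteins, transcription factors known for roles in defence and stress signalling, had 12 of 13 loci called lower and 0 higher, with a median of -2.48. Scaled to library totals 10 were called lower and 0 higher. The median S-type level of the 13 loci was 1289.5 scaled counts. Among all loci with 1000 to 2000 in the higher library, 40.7% were called lower. The list summed to 6165.2 scaled counts in the L-type and 28083.2 in the S-type library under control. It summed to 9862.8 in the L-type and 30048.0 in the S-type library under salt and to 2196.0 in control nodal roots. The most abundant of them had 1914.4 in the L-type and 8315.3 in the S-type library, and the one with the largest difference had 91.45 in the L-type and 2261.1 in the S-type library. The order of the control sums was S-type, L-type, nodal.

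The NAC and DREB factors of drought, cold and salt response showed the same order. Of 7 loci 6 were called lower in L-type roots and 0 higher, and the median was -2.37. Their sums were 1495.1 scaled counts in L-type, 10274.3 in S-type and 545.8 in nodal control roots. The most abundant had 308.9 in the L-type and 3739.3 in the S-type library. The SnRK2 kinases, which pass on the abscisic acid and osmotic stress signal, had 7 of 9 loci lower and 0 higher, with a median of -1.51. They summed to 2565.8 in the L-type and 7606.6 in the S-type library.

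Hormone lists were less even. Jasmonate synthesis and signalling, which acts in wound and defence response, had 11 of 20 loci lower and 1 higher, with a median of -1.17. The lowest of them had 8.63 scaled counts in the L-type and 395.4 in the S-type library, and the 1 higher locus had 278.7 in the L-type and 66.27 in the S-type library. Scaled to library totals 6 were lower and 2 higher. Abscisic acid synthesis, breakdown and response had 6 of 11 loci lower and 1 higher, with a median of -1.03, and 3 lower and 2 higher with library totals. Ethylene synthesis and perception had 3 of 9 lower and 0 higher, beside 22.0% lower over all loci, with a median of -0.10. With library totals 3 were lower and 2 higher and the median was 0.35.

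Auxin and cytokinin, the hormones best known for setting the number and position of lateral roots, gave split lists. The Aux/IAA repressors, which hold back auxin response until they are degraded, had 4 of 20 loci higher and 3 lower, with a median of 0.42 and a range from -3.30 to 3.03. They summed to 6406.7 scaled counts in the L-type and 5774.6 in the S-type library. Auxin carriers had 2 of 4 loci lower and 0 higher. Cytokinin response regulators and oxidases had 3 of 4 loci higher and 1 lower, with a median of 1.32, and summed to 389.1 in the L-type and 264.0 in the S-type library. Of 14 loci listed for crown and lateral root patterning, 3 reached 50 scaled counts and 0 were called. The largest of them had 1188.9 in the L-type and 2317.2 in the S-type library.

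Most listed enzymes of phenylpropanoid metabolism were lower in L-type roots under control. Phenylalanine ammonia-lyase opens the pathway to lignin and many defence compounds. Of 9 IDs listed for it, 6 were in the table and 4 reached 50 scaled counts, of which 3 were called lower and 0 higher, with a median of -2.48. The other one had 10280.5 scaled counts in the L-type and 14504.4 in the S-type library. It made up most of the list's sums of 11191.6 in the L-type and 21909.9 in the S-type library. Under salt that locus was called higher, with 20219.6 in the L-type and 4211.8 in the S-type library. The list then summed to 20868.7 in the L-type and 7340.7 in the S-type library, while the 3 lower loci were called lower again. Among all loci with 2000 to 5000 in the higher control library, 56.7% were lower. Later steps of the lignin pathway had 10 of 13 loci lower and 0 higher, with a median of -2.18, and summed to 3728.8 in the L-type and 11664.9 in the S-type library. Scaled to library totals 7 were lower and 1 higher.

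**Figure D3:**
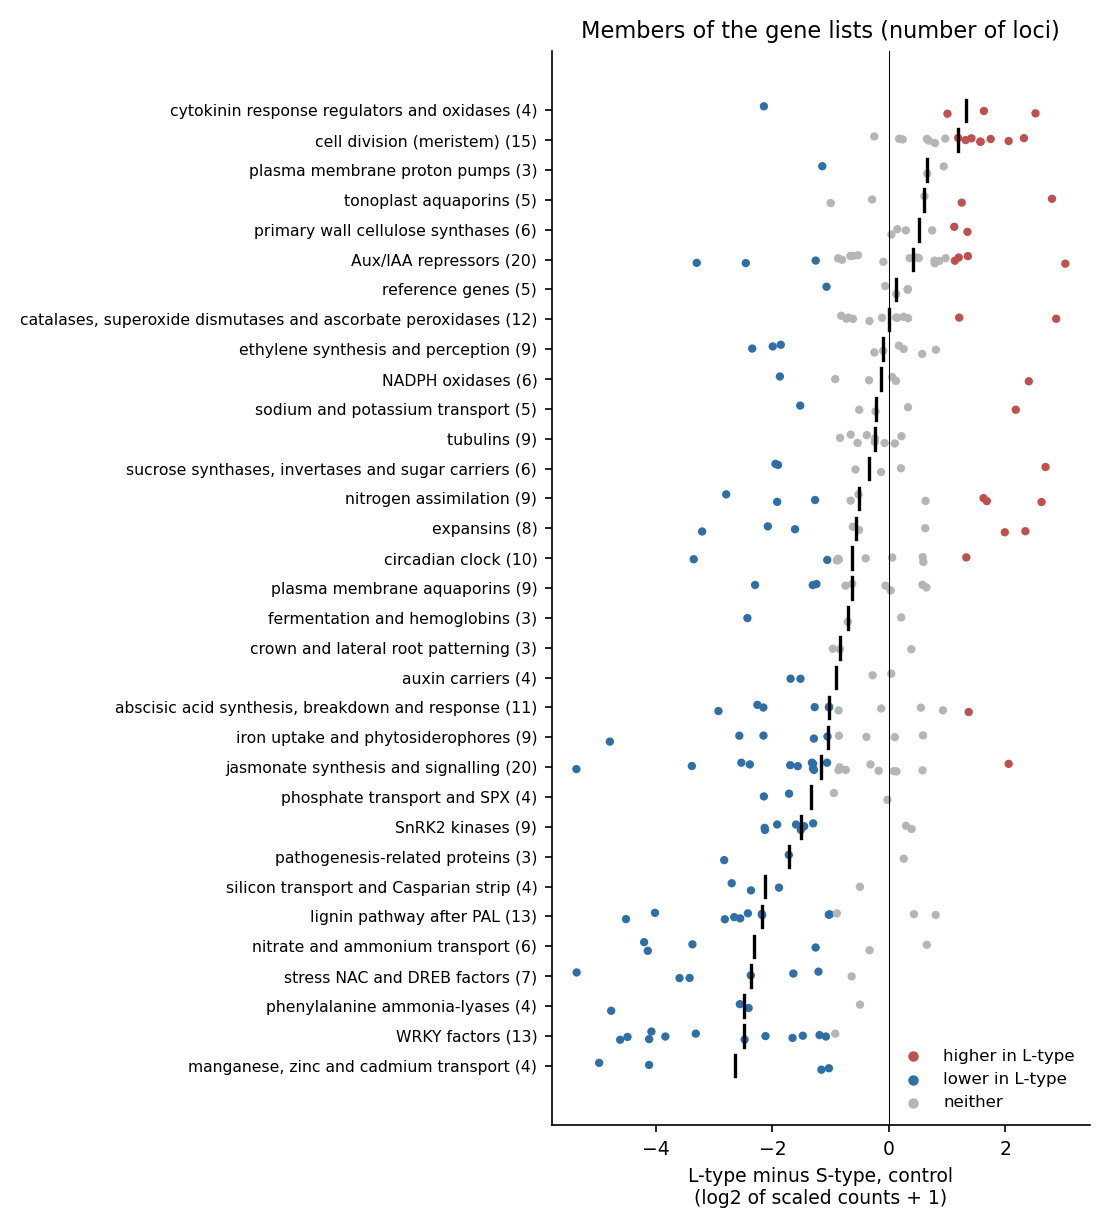
Log2 difference of scaled counts + 1, L-type minus S-type, control (x axis), for each locus of the 33 gene lists with at least 3 loci at 50 scaled counts (rows, number of loci in parentheses), with the median as a bar. Cell division lies to the right with a median of 1.19, and WRKY factors and the NAC and DREB factors lie to the left with medians of -2.48 and -2.37.

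Mineral uptake lists were mostly lower in L-type roots under control. Of 5 loci listed for manganese, zinc and cadmium transport, 4 reached 50 scaled counts and these 4 were called lower, with a median of -2.64, and were also called lower under salt. The 5 loci summed to 978.4 scaled counts in the L-type and 2996.8 in the S-type library under control, and to 965.9 in the L-type and 4027.5 in the S-type library under salt. Scaled to library totals 2 of the 4 were lower under control. Iron uptake and the phytosiderophores that grasses release to bind iron had 5 of 9 loci lower and 0 higher, with a median of -1.05. The one with the largest difference had 29.33 in the L-type and 837.9 in the S-type library, while the locus at the other end had 2370.8 in the L-type and 1580.4 in the S-type library.

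Nitrate and ammonium transport had 4 of 6 loci lower and 0 higher, with a median of -2.32. These 6 were low loci, at 55.0 to 138.2 scaled counts in the S-type library and a median of 14.7 in the L-type library. Under salt 2 of the 6 were called higher in L-type roots and 1 lower, with a median of 0.05. The 17 listed loci summed to 419.3 scaled counts in the L-type and 676.2 in the S-type library. Phosphate transport and its SPX regulators had 2 of 4 lower and 0 higher, and summed to 3386.3 in the L-type and 8063.7 in the S-type library. The median S-type level of these 4 loci was 1695.5 scaled counts. Among all loci with 1000 to 2000 in the higher library 40.7% were lower, so this list lay near loci of like level. Silicon transport and the Casparian strip, the barrier of the endodermis, had 3 of 4 loci lower. They summed to 2962.7 in the L-type and 16663.3 in the S-type library under control, and the locus with the largest difference had 1311.4 in the L-type and 8514.2 in the S-type library. The median S-type level of these 4 loci was 4048.2, and of all loci with 2000 to 5000 in the higher library 56.7% were lower. Sodium and potassium transport had 1 of 5 higher and 1 lower, with a median of -0.23 that was 0.21 with library totals.

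Water channels are named by the membrane they sit in. The plasma membrane aquaporins had 3 of 9 loci lower and 0 higher, with a median of -0.63, while their sums were 8797.4 scaled counts in the L-type and 8819.7 in the S-type library. With library totals 0 of them were lower and 2 higher. The tonoplast aquaporins, which sit in the vacuole membrane, had 2 of 5 higher and 0 lower, or 3 higher and 0 lower with library totals, with sums of 4832.2 in the L-type and 2969.8 in the S-type library. The locus with the largest difference had 2149.1 in the L-type and 307.8 in the S-type library. Catalases, superoxide dismutases and ascorbate peroxidases had 2 of 12 higher and 0 lower and a median of 0.00 that was 0.45 with library totals. The reference genes, often used to scale expression, had 1 of 5 lower, or 0 with library totals, and a median of 0.12, with sums of 5894.3 in the L-type and 5863.3 in the S-type library.

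The remaining lists were small or had calls in both directions. Nitrogen assimilation had 3 of 9 higher and 3 lower, and 4 higher and 2 lower with library totals. The plasma membrane proton pumps had 1 of 3 lower and 0 higher with a median of 0.66, but 2 higher and 0 lower with library totals. The 1 lower pump held most of the list, with 3720.2 scaled counts in the L-type and 8215.4 in the S-type library. NADPH oxidases had 1 of 6 higher and 1 lower, with a median of -0.14 that was 0.31 with library totals, and the lower one had 947.3 in the L-type and 3468.6 in the S-type library. Sucrose synthases, invertases and sugar carriers had 1 of 6 higher and 2 lower, with a median of -0.35 that was 0.09 with library totals. Circadian clock genes had 1 of 10 higher and 2 lower, close to the 12.3% and 22.0% over all loci, and 3 higher and 1 lower with library totals. Pathogenesis-related proteins had 2 of 3 lower, and fermentation enzymes and hemoglobins 1 of 3 lower. Of the heat shock list 2 loci reached the minimum, 1 higher and 1 lower, and 1 locus of diterpenoid synthesis did, called lower.

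Markers of shoot tissue were low in both control lateral libraries. The 26 photosynthesis loci summed to 350.3 scaled counts in the L-type and 314.5 in the S-type library under control, against 2086.1 in the L-type and 350.9 in the S-type library under salt. Only 2 of them reached 50 scaled counts in a control lateral library, and 5 were at 0 in L-type and 7 at 0 in S-type roots. In nodal roots the 26 loci summed to 161.0 under control and 4742.0 under salt. Their part in the differences under salt was not tested.

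The salt-treated pair gives a second look at L-type against S-type roots in libraries that did not enter the choice of loci. The pair differs in treatment and is not a replicate. Among the 12887 loci, 1514 (11.7%) were called higher and 2284 (17.7%) lower in L-type roots under salt. Of the 1589 loci higher under control, 567 (35.7%) were higher under salt too, 23 were lower and 999 neither. The lower quartile of these 1589 was 43.8 scaled counts in the salt L-type library. A locus under 50 in both salt lateral libraries counted as neither. Of the 2836 lower under control, 1322 (46.6%) were lower under salt too, 197 were higher and 1317 neither. The median log2 difference of the loci higher under control was 1.42 under control and 1.01 under salt. For those lower under control it was -1.93 and -0.94. The shared loci made up 37.5% of the higher and 57.9% of the lower loci under salt. Across the 12887 loci the log2 differences of the 2 pairs correlated at 0.507 (Pearson) and 0.492 (Spearman), over loci that are not independent and with no p.

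**Figure D4:**
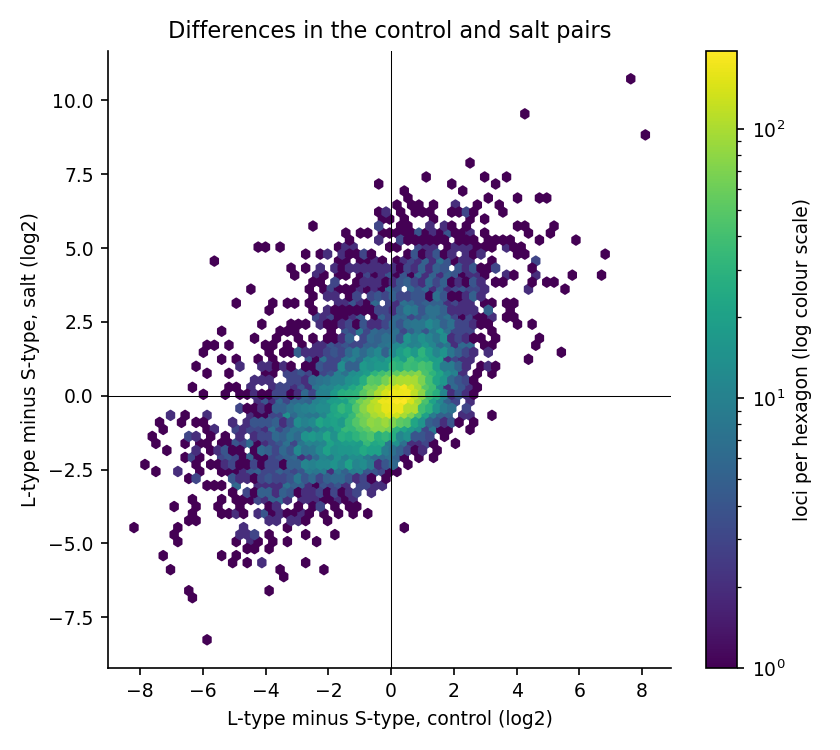
Log2 difference, L-type minus S-type, under salt (y axis) against control (x axis) for 12887 loci, with colour for the number of loci per hexagon on a log scale. Most loci lie near 0 on both axes and the cloud runs from lower left to upper right, with a correlation of 0.507.

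Loci lower in L-type roots under control had a smaller gap under salt. Their median was 53.5 scaled counts in the L-type and 238.7 in the S-type library under control, and 120.5 in the L-type and 227.2 in the S-type library under salt. The control values follow from the call, while those under salt did not enter it. The S-type medians were thus similar and the L-type median was higher under salt. These loci were picked for a low L-type level beside the S-type level under control. A smaller gap in any other pair is therefore partly built in, and an effect of salt on them was not tested. Loci higher in L-type roots under control had medians of 119.1 in the L-type and 40.4 in the S-type library under control, and 75.8 in the L-type and 36.6 in the S-type library under salt.

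Gene lists differed in how far the salt pair showed the same difference. Under salt 5 of the 13 WRKY loci were lower in L-type roots and 1 was higher, with a median of -0.89, and all 5 were also lower under control. Jasmonate loci had 11 of 20 lower again, 8 of them lower under both treatments. Cell division loci had 7 of 15 higher under salt, 2 of them higher under both, with a median of 2.82. Their median level under salt was 51.1 scaled counts in the L-type library (lowest 15.5) and 6.31 in the S-type library. Loci under 50 in both salt lateral libraries could not be called, which limits the overlap. Tubulins had 0 of 9 called under control and 8 of 9 higher under salt, with a median of 1.70. Later lignin steps had 3 of 13 lower and 3 higher under salt.

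Nodal roots, the third library of the control set, were not used in the choice of loci either. For the 1589 loci higher in L-type roots, the control nodal level lay above both lateral libraries at 528, between them at 868 and below both at 193. For the 2836 lower loci it lay above both at 362 (12.8%), between them at 1288 (45.4%) and below both at 1186 (41.8%). Over all 12887 loci these shares were 31.8% above, 30.1% between and 38.2% below. Most of those loci were called in neither direction. The call itself sets the lateral levels of called loci apart, which leaves more room between them. A larger share between is therefore partly built in, and the shares over all loci are no baseline for called loci. The nodal medians were 94.4 scaled counts for the higher and 71.2 for the lower loci.

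**Figure D5:**
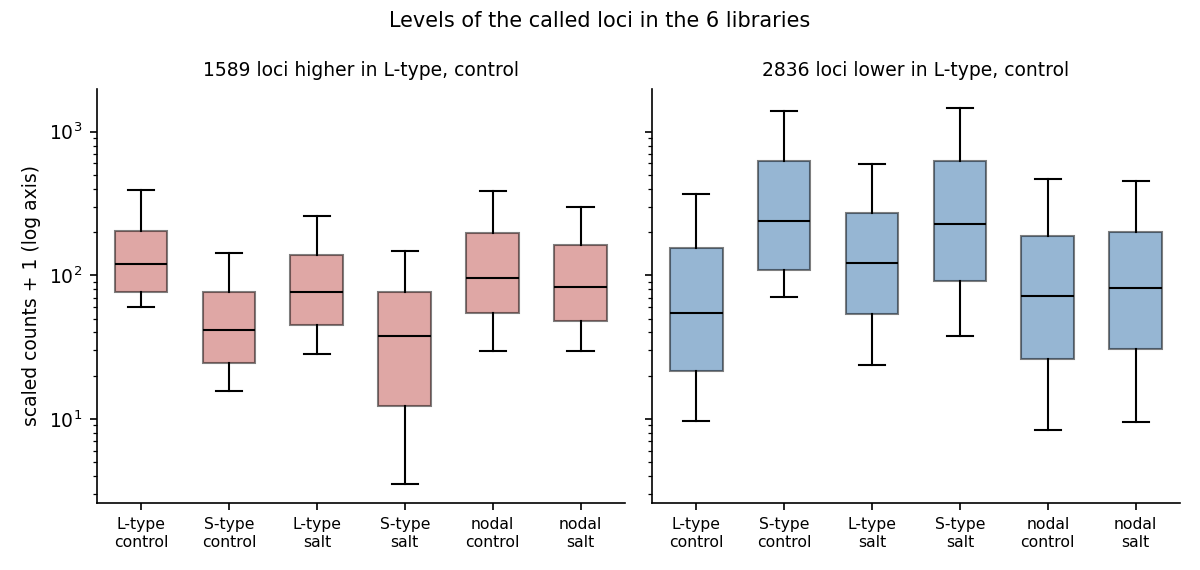
Scaled counts + 1 (log axis) in each of the 6 libraries for the 1589 loci called higher (left) and the 2836 called lower (right) in L-type roots under control; boxes run between the quartiles with the median as a line, and whiskers reach the 10th and 90th percentiles. For the lower loci the L-type median is 53.5 under control and 120.5 under salt, while the S-type medians are 238.7 and 227.2.

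The called loci also differed in size and place, which the call did not use. The genomic span of a locus had a median of 4833 bases (quartiles 3369 and 6917) for higher loci, 2871 (1592 and 4690) for lower loci and 4717 (3323 and 7057) for those called in neither direction. By chromosome, 10.7% to 17.6% of loci were higher and 15.1% to 26.1% lower. Chromosome 11 had 17.6% higher and 18.1% lower, and chromosome 12 had 16.3% higher and 15.1% lower, the 2 highest and the 2 lowest shares. Chromosome 10 had the highest share lower, 26.1%. The 128 loci without a gene ID had 28.9% higher and 32.8% lower.

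In the order of the described loci, lower loci stood next to each other more often than higher loci in number. Taking the 12887 loci in chromosome order, 141 runs of 3 or more neighbours were all lower in L-type roots and held 475 loci (16.7% of the lower ones), and 24 runs were all higher and held 76 (4.78%). Loci under 50 scaled counts in both libraries were passed over, so a run can have other loci within its span. No chance level was computed, and lower loci were also more numerous. The longest run lower had 6 of the 10 loci on chromosome 5 between 1535763 and 1665415. It summed to 2231.9 scaled counts in the L-type and 10264.2 in the S-type library under control, and to 4526.5 in the L-type and 14534.9 in the S-type library under salt, where 4 of the 6 were called lower. The 4 longest runs higher had 4 loci each. One of them, chosen after its values were seen, on chromosome 6 between 10381929 and 10433272 summed to 952.5 in the L-type and 257.2 in the S-type library under control, and all 4 of its loci were also higher under salt, with 953.1 in the L-type and 93.4 in the S-type library.

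The authors' deposited table gives its own comparison of the 2 control libraries. Of 18177 loci tested in the authors' deposited table, 34 were marked significant, and 30 of those were lower in L-type roots. The authors' deposited table lists 791 loci at an unadjusted p under 0.05, of which 664 were lower in L-type roots. Of the 34 in the authors' deposited table, 29 had no read in the L-type and 4 none in the S-type library. The 4 loci given by ID above had a q of 0.9985 in the authors' deposited table.

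A test over both treatments was possible with 1 additive model of root type and treatment on all 6 libraries, whose 2 residual degrees of freedom measure how evenly a difference repeats. Over 19469 loci, limma called 2 loci (0.0103%) between L-type and S-type roots at an adjusted threshold of 0.05 and 4270 (21.9%) at an unadjusted p under 0.05. The edgeR count test on the recovered reads called 1 locus (0.00514%, against 3733 or 19.2% at an unadjusted p under 0.05) and DESeq2 called 1661 (8.53%). Os05g0111300 was higher in L-type roots by 8.50 ± 0.42 (log2 units, SE; adjusted p = 0.0177 in limma, 0.0473 in edgeR). Os03g0103200 had 9.23 ± 0.72 (log2 units, SE; adjusted p = 0.0648 in limma), and Os02g0643800 and Os10g0456100 had limma adjusted p = 0.121 and 0.101, so these 3 were not called. The control libraries that the choice of these 4 loci used are part of this fit, which is therefore no independent test of them.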

How the data were processed

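Messenger RNA of 6 root samples was sequenced, 1 library per group. Trimmomatic 0.32, TopHat2 2.0.11 with Bowtie listed beside it, Cuffdiff 2.2.1, Cufflinks 2.2.1 and build IRGSP-1.0 are named in the submitters' processing notes. For each locus and library a signal was deposited by the authors: reads over 1 size factor per library. They also deposited, per the file headers, FPKM values with p-values and q-values for pairs of libraries. Division by each library's smallest step gave whole reads, within 0.01, for 99.897% to 99.982% of values above 0. No source used here states how reads from near-identical copies were counted, which leaves values of single family members uncertain; 325 IDs stand on more than 1 locus.

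Log2 differences, medians and the 2-fold limit are on the log2(scaled count + 1) scale of the deposited values, which understates changes of low loci; ratios printed as a fold are of the scaled counts with nothing added. Counting intervals are 95% exact conditional binomial (Clopper-Pearson) intervals from the recovered reads, computed with SciPy 1.17.1 in Python 3.11.15. A library with 0 reads was set to a floor of 3 reads. The additive fit used limma-trend 3.58.1 on log2(TMM-scaled reads + 1) in R 4.3.3 for loci reaching 10 reads in 2 or more libraries, with Benjamini-Hochberg adjustment, two-sided; edgeR 4.0.16 (quasi-likelihood) and DESeq2 1.42.0 were run on the recovered reads. The rule of size was tried on simulated counts with counting error only, which cannot show how it behaves with variation between root samples. The fits were tried on simulated counts with variation beyond counting error.

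The loci, lists and tests were chosen with earlier results of these data known. Loci are printed by ID by a rule of size: the 2 largest ratios in each direction among called loci with a gene ID and at least 200 scaled counts in the higher library; the 10 largest ratios and the 5 most abundant called loci are summarised, and list members are not named singly. Alternatives were other scalings, pseudocounts, minimums and folds, FPKM, and IDs on 1 locus.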

Additional observations from a re-analysis of the deposited data

Results flagged for a closer look

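Of the 33 lists with at least 3 loci, 5 had medians of opposite sign in the control and salt pairs, each at least 0.5 in size on the log2 scale; whether the 2 pairs differ was not tested, since each group is 1 library. Silicon transport and the Casparian strip had a median of -2.13 under control and 0.80 under salt, where 2 of 4 loci were called higher in L-type roots and 1 lower. The sums of that list stayed lower in L-type roots under salt, with 9703.0 scaled counts in the L-type and 30826.8 in the S-type library. One of the loci called higher under salt had 51.13 in the L-type library and no read in the S-type library. Expansins had -0.57 under control and 3.03 under salt, and auxin carriers -0.90 and 2.19. Under salt 3 of 8 expansins were called higher and 0 lower. Their median level in the salt S-type library was 4.42 scaled counts, near the floor of 3 reads (3.79), so the size of that median is uncertain. Of the 4 auxin carriers 2 were called higher under salt and 0 lower, and the lowest had 5.05 in the salt S-type library. Pathogenesis-related proteins had -1.72 under control and 1.73 under salt, and fermentation enzymes and hemoglobins -0.71 and 1.31. With library totals these 5 lists kept their opposite signs, but not all kept the size of 0.5. The control medians were then -0.12 for expansins, -0.45 for auxin carriers and -0.26 for fermentation enzymes and hemoglobins. Among single loci, 23 were higher in L-type roots under control and lower under salt, and 197 were lower under control and higher under salt. The photosynthesis list was used as a marker of shoot tissue. Under salt it summed to 2086.1 scaled counts in the L-type, 350.9 in the S-type and 4742.0 in the nodal library. Its part in these differences was not tested.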

How the results depend on the processing

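Scaling decided the split of calls. With library totals 3542 loci were higher under control, against 1589 with the authors' size factors, and under salt 2762 were higher and 1266 lower, against 1514 and 2284. Loci called the same way in both pairs were then 1333 higher and 764 lower, against 567 and 1322, and 13 lists had a median above 0, against 8. TMM factors (1753 higher, 2784 lower), median-of-ratios factors (1551 and 2845) and centring on the median (1739 and 2720) kept both counts within 1.5 times. A minimum of 10 scaled counts gave 2800 higher, a minimum of 200 gave 406 higher and 1567 lower, and 4-fold gave 319 higher and 1354 lower. Settings chosen after seeing the data were at least 50 scaled counts in both lateral libraries (644 higher, 1472 lower), a mean of 50 over the 6 libraries (1266 higher, 2514 lower), library totals with 4-fold (712 higher, 937 lower), and the count tests in the additive fit (edgeR 1 locus, DESeq2 1661, limma 2). FPKM, pseudocounts of 0.5 and 5 and IDs on 1 locus kept both counts within 1.5 times. Under every scaling 27 of 33 lists kept the sign of their median; the other 6, whose medians lay between -0.35 and 0.00, did not. The 4 loci given by ID kept their call under every scaling. No paired analysis was possible because each group is 1 library. Depth limits low loci: a count of 0 allows up to 2.59 scaled counts in the L-type and 3.37 in the S-type control library, counting error only.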
